A study of Homo sapiens with 7 samples.

Results

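Expression of the annexin genes was examined in RNA-seq data from insulin-expressing β-like cells. The set comprised ANXA1, ANXA2, ANXA3, ANXA4, ANXA5, ANXA6, ANXA7 and ANXA11, which are 8 of the 13 annexin genes named in a table of 66025 gene IDs. They were matched by symbol to Ensembl gene IDs, and all 8 passed the filter on low counts. The set was chosen by the level of ANXA1, whose counts were higher in the libraries labelled iKD2 Dox+ than in both controls, and the other members were added to see whether they moved with it. The values of ANXA1 in those comparisons therefore chose the set and are given as a description, without a test.

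The cells were differentiated to stage 6 from the H1 human embryonic stem cell line, stained with the zinc dye DA-ZP1 and sorted by flow cytometry. All of them had received a lentiviral vector for a doxycycline (Dox)-inducible shRNA and had been selected with puromycin as stem cells. The groups were iKD2 Dox+ (shRNA against METTL14, Dox given, 3 libraries lettered a, b and c), iKD2 Dox- (same line without Dox, 2 libraries lettered b and c) and iSCR Dox+ (non-targeting shRNA, Dox given, 2 libraries lettered a and b). METTL14 is the RNA-binding partner of METTL3 in the methyltransferase that places N6-methyladenosine (m6A) in mRNA. Each line carried 1 shRNA, and Dox and shRNA target differ together between iKD2 Dox- and iSCR Dox+. The study describes the libraries as independent biological samples, but nothing in the labels shows that those of 1 group came from separate cultures. The p-values therefore measure the spread between these libraries only.

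Annexins are cytosolic proteins that bind to negatively charged phospholipids of membranes when calcium rises, through a core of repeated helical domains. They differ in the N-terminal tail, which several of them use to bind a small S100 or other EF-hand protein, and they take part in membrane repair, in exocytosis and in the handling of apoptotic cells. ANXA1 is a mediator of the anti-inflammatory action of glucocorticoids and signals through formyl peptide receptors when released from cells.

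The stretches of 250 bases before the RefSeq start sites (GRCh38.p14) were read for the members that stood highest in iKD2 Dox+ against iKD2 Dox- and for ANXA6, an abundant member that did not. They show the core promoter letters that these genes carry. All 8 members matched, with 12 start sites in all. Capitals mark matches, on either strand and with overlaps kept, to the TATA box (TATAAA), to the CCAAT box, to the GC box (GGGCGG) and to the AP-1 site (TGANTCA). The stretches lie at chr9:73151615-73151864 on the plus strand for ANXA1, and on the minus strand at chr15:60397987-60398236 for ANXA2, chr10:80205809-80206058 for ANXA11 and chr5:151157780-151158029 for ANXA6.
ANXA1: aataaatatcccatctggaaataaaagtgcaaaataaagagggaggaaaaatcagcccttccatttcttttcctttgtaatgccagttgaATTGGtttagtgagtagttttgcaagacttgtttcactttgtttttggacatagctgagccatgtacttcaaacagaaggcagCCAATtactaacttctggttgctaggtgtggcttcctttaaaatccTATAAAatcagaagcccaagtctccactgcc
ANXA2: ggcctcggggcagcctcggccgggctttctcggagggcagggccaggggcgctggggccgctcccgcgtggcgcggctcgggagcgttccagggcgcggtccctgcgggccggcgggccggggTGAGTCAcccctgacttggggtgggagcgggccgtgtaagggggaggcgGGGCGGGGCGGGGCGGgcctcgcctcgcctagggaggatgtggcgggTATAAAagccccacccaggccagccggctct
ANXA11: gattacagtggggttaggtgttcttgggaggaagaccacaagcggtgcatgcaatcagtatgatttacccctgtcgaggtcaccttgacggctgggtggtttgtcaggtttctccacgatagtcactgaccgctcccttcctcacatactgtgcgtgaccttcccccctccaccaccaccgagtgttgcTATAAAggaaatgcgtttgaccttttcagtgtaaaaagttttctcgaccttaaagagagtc
ANXA6: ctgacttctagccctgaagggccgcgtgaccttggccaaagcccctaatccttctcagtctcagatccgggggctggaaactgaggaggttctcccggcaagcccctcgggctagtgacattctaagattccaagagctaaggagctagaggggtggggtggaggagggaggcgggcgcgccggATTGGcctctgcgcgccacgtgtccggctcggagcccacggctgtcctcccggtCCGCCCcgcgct

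TATAAA began 31 bases before the start of both ANXA1 and ANXA2, and 61 bases before 1 of the 3 starts of ANXA11. Only this start of ANXA11 is shown, and its others, at chr10:80205538-80205787 and chr10:80204492-80204741, held no TATAAA. The first of these had a GC content of 73.6% and 3 GGGCGG matches. ANXA6 has a further start that is not shown, and neither of its stretches held TATAAA. It was found in 3 of the 12 stretches of the members, and 10.7% of the 35116 RefSeq promoters held it in the same 250 bases. The stretch of ANXA1 had a GC content of 38.4% and 0 CpG, against 78% and 28 CpG for ANXA2. Over all promoters the median was 58% GC and 11 CpG, and 6.06% held 0 CpG. ANXA2 also held 3 overlapping GGGCGG matches (42.6% of promoters hold at least 1) and TGAGTCA, a match to the AP-1 letters (6.57%). ANXA1 held CCAAT at 160 and 77 bases before its start (32% of promoters). These matches are letters in a window, and neither binding nor use of a start site was measured here.

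Since METTL14 belongs to the m6A writer, the pentamer GGACT, a frequent form of the sequence in which m6A is placed, was located in 1 principal protein-coding transcript per gene (GENCODE 29). ANXA1 held 1 match and ANXA2 held 2. ANXA3 and ANXA7 held 0. The matches of ANXA1 and ANXA5 and the coding match of ANXA2 are shown with 10 bases on each side, with GGACT in capitals.
ANXA1: accgatctgaGGACTttggtgtgaa
ANXA2: gaaccgacgaGGACTctctcattga
ANXA5: atacatctggGGACTataagaaagc

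ANXA6 held 7 matches, all of them in its coding sequence, or 2.70 per kb, and 97.4% of 15322 principal transcripts of the genes tested had fewer per kb. ANXA11 held 9 in a transcript of 6965 bases (1.29 per kb). Of all these transcripts 91.4% held at least 1 match, with a median of 0.940 per kb. ANXA1, at 0.453 per kb, lay below this median. Methylation was not measured in these libraries, and a match is no evidence of it.

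Total estimated counts ranged from 14875429 to 20639156 per library. Values below are TMM-scaled CPM, in which each count is divided by the size of its library. METTL14 was at 18.7, 16.3 and 49.1 CPM in libraries a, b and c of iKD2 Dox+, at 39.4 and 22.6 CPM in libraries b and c of iKD2 Dox-, and at 36.1 and 32.2 CPM in libraries a and b of iSCR Dox+. METTL14 was thus highest in the library labelled iKD2 Dox+ c, against the label, and log2 fold changes are given below with and without it. Correlations of log2 CPM across genes between libraries ranged from 0.716 to 0.785 within groups and from 0.725 to 0.786 between groups. INS was among the most abundant markers, at 11365 to 22298 CPM. In bulk samples, fewer cells of a type and less RNA per cell cannot be told apart.

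ANXA1 (ENSG00000135046, chromosome 9, 73151757 to 73170393, GRCh38) was highest in the libraries labelled iKD2 Dox+. It was at 413, 426 and 589 CPM in libraries a, b and c of iKD2 Dox+, at 147 and 87.0 CPM in libraries b and c of iKD2 Dox-, and at 198 and 252 CPM in libraries a and b of iSCR Dox+. The lowest iKD2 Dox+ library lay above the highest control, and iKD2 Dox- lay below iSCR Dox+. The means with their SD were 476 ± 98.2 CPM in iKD2 Dox+ (n = 3), 117 ± 42.3 CPM in iKD2 Dox- (n = 2) and 225 ± 38.0 CPM in iSCR Dox+ (n = 2). Its level in iKD2 Dox+ was 4.07-fold that of iKD2 Dox- (2.03 on the log2 scale, SE 0.27) and 2.12-fold that of iSCR Dox+ (1.08, SE 0.26). Without the library labelled iKD2 Dox+ c it was 1.84 and 0.89. Against iKD2 Dox- it was 2.45 when library b of that group was left out and 1.69 when c was.

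The controls were compared as well. This contrast did not choose ANXA1, but the same control libraries entered that choice. The p-values of ANXA1 between the controls are therefore not independent of the choice. Here both iKD2 Dox- libraries were below both iSCR Dox+ libraries for ANXA1, with a log2 fold change of -0.94 (95% CI -1.52 to -0.37, SE 0.28, adjusted p = 0.748 by edgeR). The adjusted p was 0.0157 with DESeq2 and 0.0338 without iSCR Dox+ a, in a range of 0.0157 to 1 over the alternatives. The 2 comparisons of iKD2 Dox+ share its 3 libraries, and each shares its controls with this one.

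**Figure D1:**
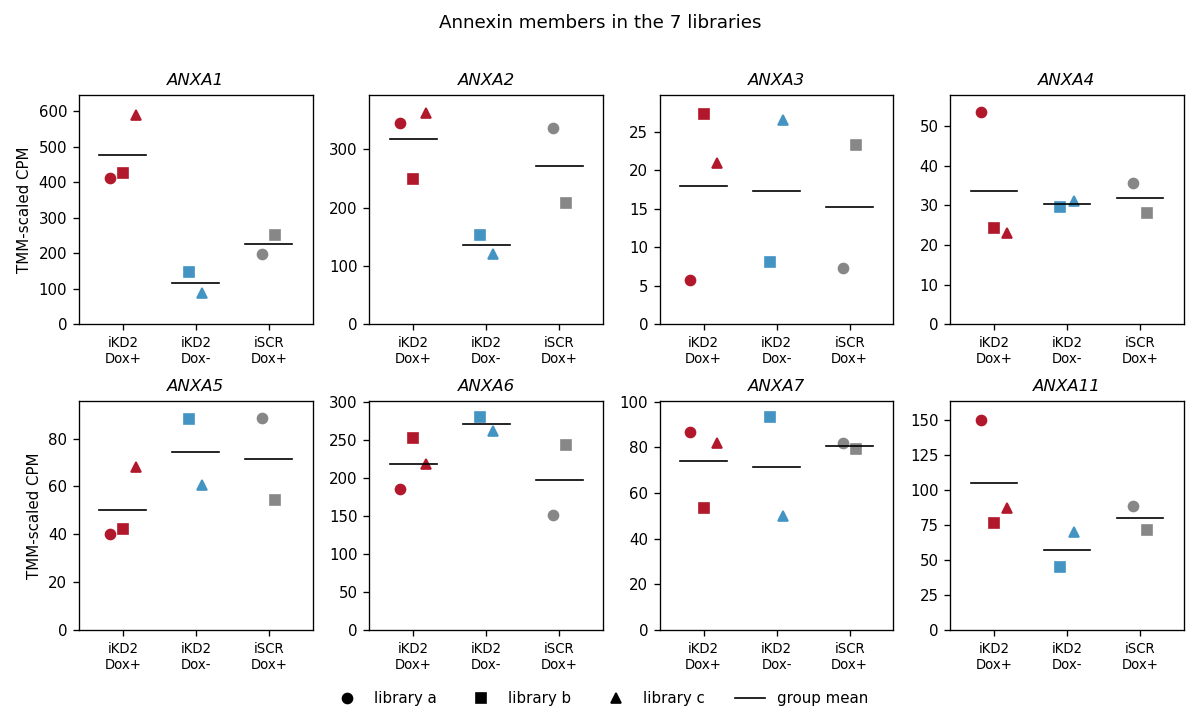
TMM-scaled CPM (linear axes from 0, a separate scale for each gene) of the 8 members in iKD2 Dox+, iKD2 Dox- and iSCR Dox+, with 1 point per library (circle a, square b, triangle c) and a line at the group mean. For ANXA1 the iKD2 Dox+ points sit between 413 and 589, all above the controls at 87.0 to 252, while the points of the other 7 members overlap with at least 1 control group.

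ANXA2 (ENSG00000182718, chromosome 15, 60347134 to 60402883) binds S100A10 and acts at the cell surface and in exocytosis. It was at 345, 248 and 362 CPM in libraries a, b and c of iKD2 Dox+, at 153 and 120 CPM in libraries b and c of iKD2 Dox-, and at 336 and 207 CPM in libraries a and b of iSCR Dox+. It thus lay above iKD2 Dox- in all 3 iKD2 Dox+ libraries but overlapped with iSCR Dox+. The log2 fold change against iKD2 Dox- was 1.22 (SE 0.27, 95% CI 0.67 to 1.78) and did not pass the threshold with edgeR (adjusted p = 0.155). Against iSCR Dox+ it was 0.23 (SE 0.26, 95% CI -0.31 to 0.77, adjusted p = 0.889). Within the controls, ANXA2 was at 0.502 of its iSCR Dox+ level in iKD2 Dox- (SE 0.28 on the log2 scale, adjusted p = 0.692), a difference close in size to that of ANXA1.

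The call for ANXA2 against iKD2 Dox- depended on the fit. The adjusted p ranged from 1.42e-04 to 0.993 over 16 alternatives and passed in 4 of them. These were DESeq2 (1.42e-04), the weaker count filter (0.00795) and the fits without iSCR Dox+ a (5.94e-04) or b (3.65e-04), which lie outside the comparison but enter the estimate of the spread. The log2 fold change was 1.12 when the library labelled iKD2 Dox+ c was left out. In the comparison of the controls it passed with DESeq2 (adjusted p = 0.0115) and without iSCR Dox+ b (adjusted p = 0.00296). The counts of ANXA2 were not whole numbers (tolerance 1e-06) in all 7 libraries, which marks reads divided between transcripts of several genes. Its processed pseudogenes held at most 20 counts in a library, and adding them gave 1.23.

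ANXA11 (ENSG00000122359, chromosome 10, 80150889 to 80205572), an annexin with a long tail that binds PDCD6 and S100A6 and is found on RNA granules, was at 150, 76.8 and 87.4 CPM in libraries a, b and c of iKD2 Dox+. It was at 44.8 and 70.2 CPM in libraries b and c of iKD2 Dox- and at 88.5 and 71.4 CPM in libraries a and b of iSCR Dox+. The iKD2 Dox+ libraries were above iKD2 Dox-, by a log2 fold change of 0.87 (SE 0.38, unadjusted p = 0.0335, adjusted p = 1 by edgeR), and overlapped with iSCR Dox+ (0.39, SE 0.38, adjusted p = 0.841). Without iKD2 Dox+ a, the highest library, the values were 0.51 and 0.04.

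ANXA6 (ENSG00000197043, chromosome 5, 151100712 to 151157882) has a core with more repeats than other annexins and is linked to endosomes and cholesterol traffic. Its coding sequence spans 673 codons, against 320 to 346 in ANXA1 to ANXA5. It was at 186, 253 and 219 CPM in libraries a, b and c of iKD2 Dox+, at 281 and 262 CPM in libraries b and c of iKD2 Dox- and at 152 and 244 CPM in libraries a and b of iSCR Dox+. Both iKD2 Dox- libraries were above the other 5, which overlapped. In log2 terms iKD2 Dox+ differed from iKD2 Dox- by -0.31 (95% CI -0.83 to 0.21, SE 0.25, adjusted p = 1), and from iSCR Dox+ by 0.15 (95% CI -0.38 to 0.68, SE 0.25, adjusted p = 0.942).

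ANXA5 (ENSG00000164111, chromosome 4, 121667955 to 121697113) binds phosphatidylserine, and the purified protein is used to stain apoptotic cells. Its mRNA was at 40.1, 42.2 and 68.1 CPM in libraries a, b and c of iKD2 Dox+, at 88.1 and 60.6 CPM in libraries b and c of iKD2 Dox- and at 88.6 and 54.3 CPM in libraries a and b of iSCR Dox+. The means of both controls were above that of iKD2 Dox+, but the libraries overlapped. In log2 terms iKD2 Dox+ differed from iKD2 Dox- by -0.57 (95% CI -1.42 to 0.28, SE 0.41, adjusted p = 1), and from iSCR Dox+ by -0.51 (95% CI -1.36 to 0.34, SE 0.41, adjusted p = 0.766).

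ANXA7 (ENSG00000138279, chromosome 10, 73375101 to 73414076), also called synexin and studied in granule exocytosis, was at 86.5, 53.5 and 82.0 CPM in libraries a, b and c of iKD2 Dox+. It was at 93.2 and 49.7 CPM in libraries b and c of iKD2 Dox- and at 81.9 and 79.2 CPM in libraries a and b of iSCR Dox+. All groups overlapped, with log2 fold changes of 0.05 and -0.12 for iKD2 Dox+ against iKD2 Dox- and iSCR Dox+ (SE 0.38 for both).

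ANXA4 (ENSG00000196975, chromosome 2, 69644425 to 69827100), an annexin of secretory epithelia, was at 53.5, 24.4 and 23.1 CPM in libraries a, b and c of iKD2 Dox+. It was at 29.6 and 31.2 CPM in libraries b and c of iKD2 Dox- and at 35.7 and 28.0 CPM in libraries a and b of iSCR Dox+. The iKD2 Dox+ group held both the highest and the lowest value. The log2 fold changes were 0.15 and 0.08 (SE 0.59 for both), and -0.36 and -0.42 without iKD2 Dox+ a. ANXA4 overlaps with AAK1, which lies on the opposite strand with up to 2830 counts in a library, and the strand setting of the counting was not given in the sources used here.

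ANXA3 (ENSG00000138772, chromosome 4, 78551519 to 78610451) varied most between replicates. It was at 5.74, 27.3 and 20.9 CPM in libraries a, b and c of iKD2 Dox+, at 8.14 and 26.5 CPM in libraries b and c of iKD2 Dox- and at 7.24 and 23.3 CPM in libraries a and b of iSCR Dox+. Each group held 1 library under 10 CPM and at least 1 over 20 CPM, and both a libraries were low. The log2 fold changes were 0.05 and 0.23 (SE 0.93 and 0.94), and intervals from -1.89 to 1.995 and from -1.72 to 2.19 show that a 2-fold difference was not detectable at this spread. The pooled SD within groups on the log2 scale was 1.19 for ANXA3, against 0.36 for ANXA1, 0.35 for ANXA2, 0.29 for ANXA6 and 0.42 to 0.49 for the other 4. The median over genes tested with at least 50 CPM was 0.36.

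**Figure D2:**
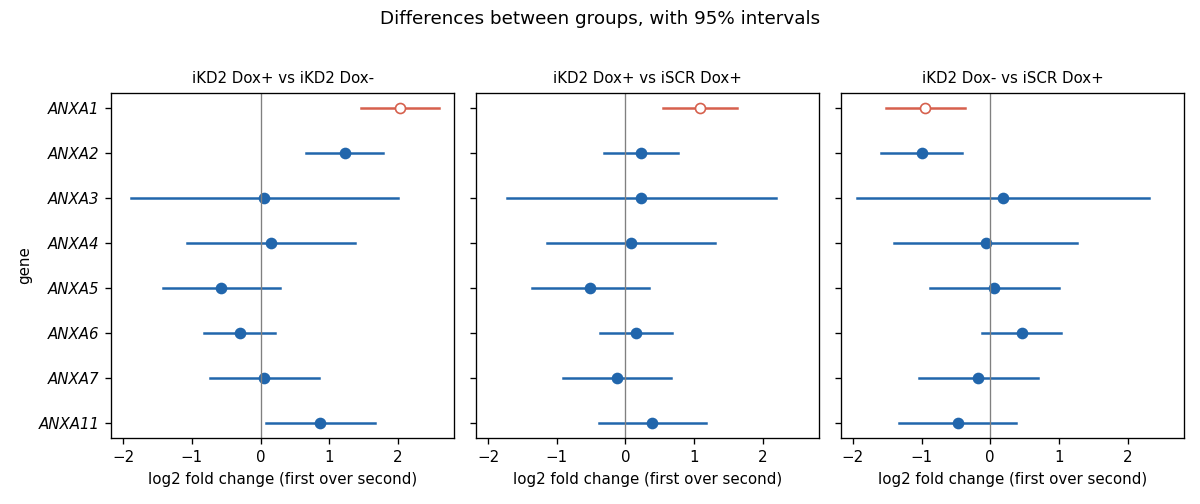
Log2 fold changes (x axis, first group over second) of the 8 members (y axis) in the 3 comparisons, with points for the estimates and lines for 95% intervals from edgeR. ANXA1, drawn as an open point because it chose the set, lies at 2.03, 1.08 and -0.94, and ANXA2 at 1.22, 0.23 and -0.996, while the intervals of ANXA3 to ANXA7 include 0 in every panel.

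When the library labelled iKD2 Dox+ c was left out, ANXA11 was at 0.98 against iKD2 Dox- and 0.50 against iSCR Dox+. ANXA6 was then at -0.31 and 0.14, ANXA5 at -0.86 and -0.80, ANXA7 at -0.0316 and -0.21, ANXA4 at 0.35 and 0.29, and ANXA3 at -0.0794 and 0.0995. ANXA3 and ANXA7 thus changed sign against iKD2 Dox-, and METTL14 moved from -0.14 and -0.28 to -0.83 and -0.97.

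Among the 7 members other than ANXA1, 0 passed an adjusted p of 0.05 in any of the 3 comparisons, in which 0.0393%, 0.0262% and 0.0131% of the 22926 genes tested passed (edgeR). Those with an unadjusted p under 0.05 numbered 2 against iKD2 Dox- (ANXA2 and ANXA11), 0 against iSCR Dox+ and 1 between the controls (ANXA2), where 3.72%, 6.72% and 4.45% of all genes tested had one. DESeq2 called more genes than edgeR, with 231, 755 and 428 in the 3 comparisons. With it 1 of the 7, ANXA2, passed against iKD2 Dox- and between the controls, and 0 against iSCR Dox+. The study's own criterion took genes that changed by more than 1.5-fold at an unadjusted p under 0.05. By it 2 of the 7 were higher against iKD2 Dox- and 0 lower (1.96% and 1.59% of all genes tested). In the comparison with iSCR Dox+ both counts were 0 (3.87% and 2.64%). Between the controls 0 were higher and 1, ANXA2, was lower in iKD2 Dox- (2.63% and 1.75%). The median log2 fold change of the 7 was 0.05, 0.15 and -0.07 in the 3 comparisons, against 0.01, 0.08 and 0.04 over all genes tested.

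Overlap of libraries was then counted. In iKD2 Dox+ against iKD2 Dox-, 2 of the 7 did not overlap and were higher (8.72% of all genes tested) and 1, ANXA6, was lower (11.6%). Against iSCR Dox+ all 7 overlapped (11.3% of all genes tested were higher and 9.23% lower without overlap). Between the controls ANXA6 was higher in iKD2 Dox- and ANXA2 and ANXA11 were lower, in 2 of 2 libraries each (19.9% and 13.2%). When the 3 iKD2 Dox+ libraries were set against all 4 controls, 0 of the 7 lay above or below every control. Over all genes tested these shares were 3.47% and 2.83%.

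The make-up of the annexin mRNA pool was therefore described per library. ANXA1 made up 32.3%, 37.0% and 40.6% of the summed counts of the 8 members in libraries a, b and c of iKD2 Dox+, 17.4% and 12.3% in libraries b and c of iKD2 Dox-, and 20.1% and 26.3% in libraries a and b of iSCR Dox+. ANXA6 made up 14.5%, 22.0% and 15.1%, then 33.2% and 37.0%, then 15.3% and 25.4%. ANXA1 was the most abundant member by counts in all 3 iKD2 Dox+ libraries, and ANXA6 was so in both iKD2 Dox- libraries. The ratio of ANXA1 to ANXA6 counts was 1.69 to 2.69 in iKD2 Dox+, 0.332 and 0.523 in iKD2 Dox- and 1.03 and 1.31 in iSCR Dox+. The summed level of the 8 members was 1152 to 1452 CPM in iKD2 Dox+, 707 and 844 CPM in iKD2 Dox-, and 959 and 988 CPM in iSCR Dox+. This sum holds ANXA1, whose level chose the set. Without ANXA1 it was 725 to 867 CPM in iKD2 Dox+, 620 and 697 CPM in iKD2 Dox-, and 707 and 790 CPM in iSCR Dox+, which overlapped with iKD2 Dox+.

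**Figure D3:**
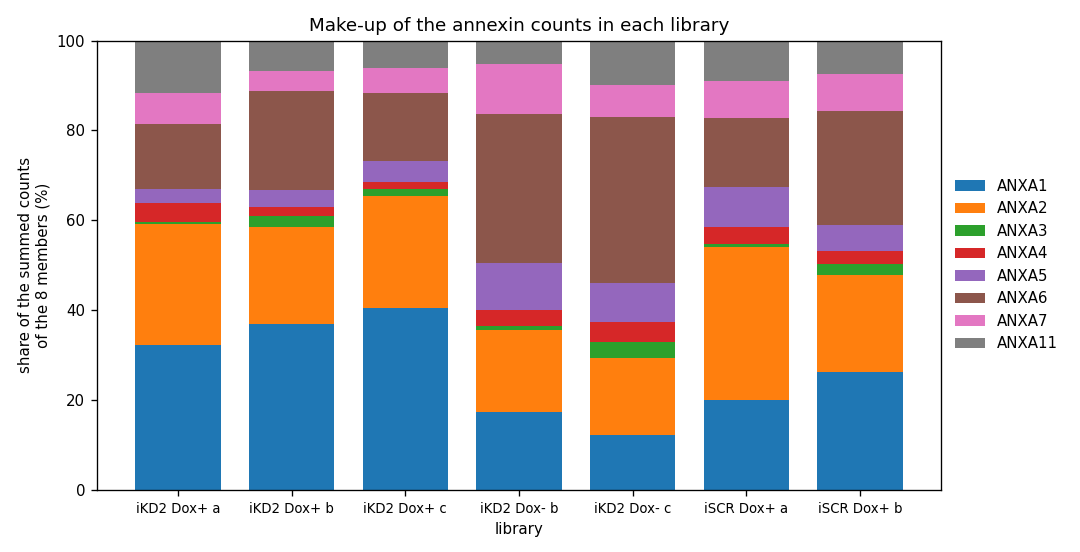
Share of the summed counts of the 8 members (y axis, percent) in each of the 7 libraries (x axis), stacked by gene. ANXA1 takes 32.3% to 40.6% in iKD2 Dox+ and 12.3% to 26.3% in the controls, where ANXA6 takes up to 37.0%.

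Levels between members were compared as mean CPM per kb of transcript (median length of the annotated protein-coding transcripts). ANXA2 stood at 378, ANXA1 at 261 and ANXA6 at 247 CPM per kb. ANXA5 (46.3), ANXA7 (34.6) and ANXA11 (33.3) followed, then ANXA3 (19.3) and ANXA4 (15.3). The first 3 led by every length used, but their order did not hold, since ANXA1 came first at 66.2 CPM per kb of all annotated exons, before ANXA6 at 42.0 and ANXA2 at 28.7. By the length of the principal transcript, which is longer than this median for all members but ANXA7, ANXA2 was at 151, ANXA1 at 137 and ANXA6 at 87.9 CPM per kb. By the median coding length, the lowest of these 3 reached down to 75.4 over the 7 libraries, and no other member rose above 65.0 CPM per kb. Ranges over libraries were not compared by the other lengths. These ranges by the median coding length overlapped within the first 3 and between neighbours among the other 5. Since members were read in the same libraries, overlap of ranges does not decide whether neighbours differed.

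The 5 other annexins named in the table were low, with no library above 15.3 CPM. ANXA13, an intestinal annexin, was highest at 1.68 to 15.3 CPM. ANXA8 and ANXA8L1, near-identical copies between which reads can be split, reached 12.0 and 11.5 CPM. ANXA9 reached 3.98 CPM and ANXA10 reached 3.28 CPM, with 0 counts in all 3 iKD2 Dox+ libraries for ANXA10. Of these 5 genes 0 passed the threshold in any comparison by edgeR, and 0 had an unadjusted p under 0.05. With DESeq2, which called 231 genes against iKD2 Dox-, 1 of them, ANXA8L1, passed in that comparison. It was at 3 and 0 counts in iKD2 Dox- and at 38 to 185 counts in iKD2 Dox+. ANXA2P1 was at 0 counts in every library, and ANXA2P2 and ANXA2P3 were too low to be tested.

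Genes of the proteins that annexin tails bind were counted next. Of 6 S100 and EF-hand partners, 0 passed the threshold in any comparison (edgeR), with 2 at an unadjusted p under 0.05 against iKD2 Dox-, 0 against iSCR Dox+ and 2 between the controls (3.72%, 6.72% and 4.45% of all genes tested). The median log2 fold change of the list was 0.71, 0.35 and -0.41. S100A11, the partner of ANXA1, was at 178, 142 and 178 CPM in libraries a, b and c of iKD2 Dox+, at 71.2 and 61.6 CPM in libraries b and c of iKD2 Dox- and at 95.9 and 124 CPM in libraries a and b of iSCR Dox+. It was the only partner of the 6 whose iKD2 Dox+ libraries all lay above the 4 controls (3.47% of all genes tested). The log2 fold change was 1.32 (SE 0.31, adjusted p = 0.196) and 0.59 (SE 0.30, adjusted p = 0.699), and the first passed with DESeq2 (adjusted p = 4.37e-05, the only call of that tool in this list) and without iSCR Dox+ a (0.00682) or b (0.00812). S100A10, the partner of ANXA2, was at 124, 89.1 and 131 CPM in iKD2 Dox+, 93.5 and 49.5 CPM in iKD2 Dox- and 79.3 and 102 CPM in iSCR Dox+, and overlapped with both. SRI, the calcium sensor sorcin, had the lowest value in both comparisons of iKD2 Dox+ (-0.31 and -0.72, SE 0.80 and 0.79).

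In a list of 9 genes of membrane repair, 1 gene, AHNAK, passed the threshold against iKD2 Dox- (edgeR), and 0 passed in the other comparisons. Of all genes tested, 0.0393% passed against iKD2 Dox-, 0.0262% against iSCR Dox+ and 0.0131% between the controls. Genes of the list with an unadjusted p under 0.05 numbered 2, 3 and 0 (3.72%, 6.72% and 4.45% of all genes tested). Set against all 4 controls, 2 of the 9 lay above in every iKD2 Dox+ library, 1 lay below and 6 overlapped. Over all genes tested, the shares above and below were 3.47% and 2.83%. AHNAK is a very large scaffold protein recruited to the plasma membrane by ANXA2 and S100A10. It was at 1178, 978 and 1065 CPM in libraries a, b and c of iKD2 Dox+, at 491 and 474 CPM in libraries b and c of iKD2 Dox- and at 631 and 523 CPM in libraries a and b of iSCR Dox+, so that every iKD2 Dox+ library was above every control. It rose by 1.15 on the log2 scale against iKD2 Dox- (SE 0.18, adjusted p = 0.0135, edgeR), in 3 of 3 libraries. This call was lost without iKD2 Dox+ a (adjusted p = 0.133), without the library labelled iKD2 Dox+ c (0.156) and with a filter at a mean of 5 CPM (0.0748), while the value stayed at 1.08 to 1.15. Against iSCR Dox+ the log2 fold change was 0.90 (SE 0.18, adjusted p = 0.126). It passed there with DESeq2 (5.04e-06), with voom (0.0196), with the weaker filter (0.00922) and without iKD2 Dox- b (0.0107), iKD2 Dox- c (0.0100) or iSCR Dox+ a (0.00614).

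MYOF, a ferlin of membrane repair, was at 82.9, 56.4 and 63.7 CPM in libraries a, b and c of iKD2 Dox+, at 21.7 and 18.5 CPM in iKD2 Dox- and at 29.5 and 8.83 CPM in iSCR Dox+. Its log2 fold changes of 1.75 and 1.82 (SE 0.58 and 0.59) did not pass (adjusted p = 1 and 0.549), and the second passed with DESeq2 (0.0211) and without iSCR Dox+ a (0.0193). SYT7, a calcium sensor of exocytosis in β-cells and the lowest of the list, was at 432 to 508 CPM in iKD2 Dox+ and at 515 to 595 CPM in the 4 controls. Its log2 fold changes were -0.22 and -0.26 (SE 0.19 for both, adjusted p = 1 and 0.719).

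**Figure D4:**
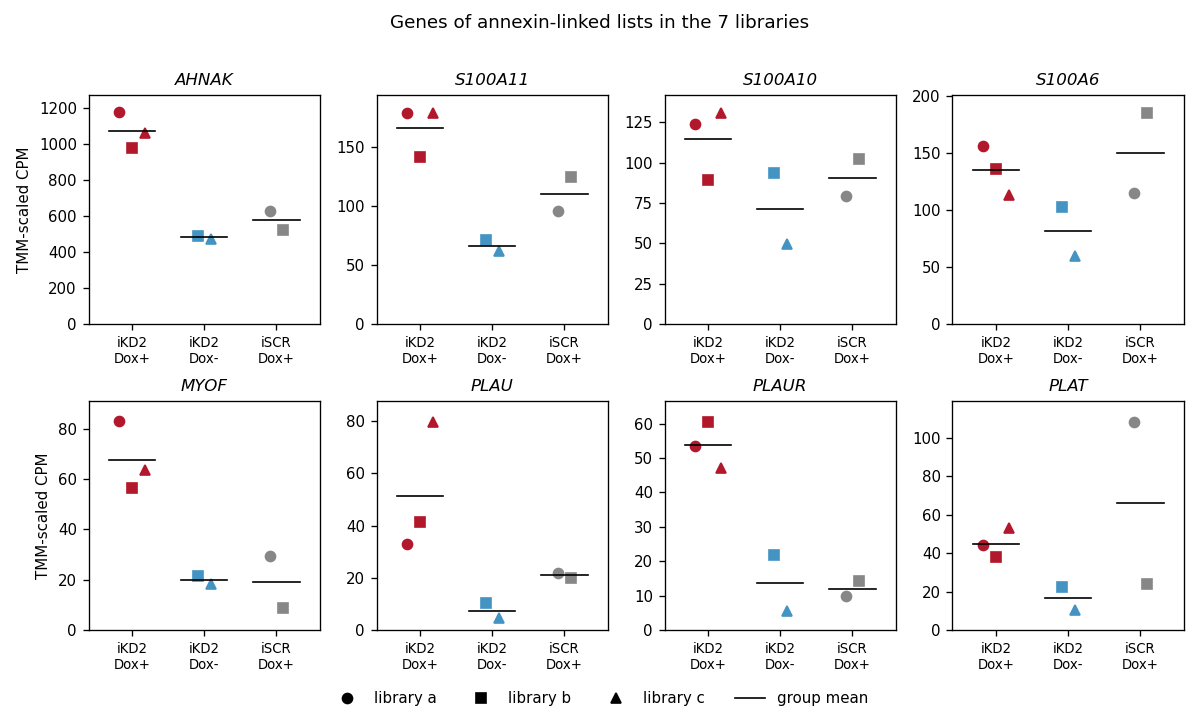
TMM-scaled CPM (linear axes from 0) of 8 genes from the partner, membrane repair and plasminogen lists in the 3 groups, with 1 point per library and a line at the group mean. AHNAK, S100A11, MYOF, PLAU and PLAUR have all iKD2 Dox+ points above the 4 controls (3.47% of all genes tested), while S100A10, S100A6 and PLAT overlap with iSCR Dox+. Other genes of these lists are not drawn, among them SYT7, which lies below all 4 controls (2.83% of all genes tested).

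ANXA2 with S100A10 is known to bring plasminogen and its activators together at the cell surface. Of the 4 genes of this system, 0 passed in any comparison (edgeR), with 4, 1 and 2 at an unadjusted p under 0.05 (3.72%, 6.72% and 4.45% of all genes tested). The 4 include PLG, the plasminogen precursor itself, which was at 84 and 17 counts in iKD2 Dox- and at 0 counts in all iKD2 Dox+ and iSCR Dox+ libraries. PLAU, the urokinase activator, was at 33.0, 41.6 and 79.7 CPM in libraries a, b and c of iKD2 Dox+, at 10.3 and 4.68 CPM in iKD2 Dox- and at 21.9 and 20.1 CPM in iSCR Dox+. Its log2 fold change against iKD2 Dox- was 2.78 (SE 0.70, adjusted p = 0.340), which passed with DESeq2 (1.62e-04) and without iSCR Dox+ a (0.00743) or b (0.00756). Its receptor PLAUR was at 47.1 to 60.6 CPM in iKD2 Dox+ and 5.72 to 21.9 CPM in the controls (log2 fold changes 1.96 and 2.15, SE 0.68 and 0.69, adjusted p = 1 and 0.542). The second passed with DESeq2 (0.0131), as did PLAT between the controls (0.0480). PLAT, the tissue activator, reached its highest value in iSCR Dox+ a at 108 CPM. When the library labelled iKD2 Dox+ c was left out, PLAU was at 2.31 and 0.82, PLAUR at 2.05 and 2.23, S100A11 at 1.26 and 0.53, and MYOF at 1.79 and 1.86.

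The receptors through which released ANXA1 signals were too low to be tested. FPR1, FPR2 and FPR3 did not reach the count filter, and FPR2 was at 0 counts in every library. TRPM7, a kinase that phosphorylates ANXA1, was at 47.8 to 91.6 CPM with log2 fold changes of 0.12 and -0.01 (SE 0.40 for both). Of 8 genes of the glucocorticoid response, 7 were tested and 0 passed in any comparison by edgeR, DESeq2 or voom. With edgeR, 0, 1 and 1 had an unadjusted p under 0.05 (3.72%, 6.72% and 4.45% of all genes tested). The 1 gene was TSC22D3, a direct target of the receptor, in both cases. It was at 33.8 to 43.1 CPM in iKD2 Dox+ and 33.5 and 40.1 CPM in iKD2 Dox-, and at 115 and 52.3 CPM in iSCR Dox+. FKBP5, another target, was at 9.21 to 16.2 CPM in iKD2 Dox+ and 7.19 to 14.98 CPM in the controls, which overlapped. ZBTB16, at 11.6 to 25.0 CPM in iKD2 Dox+, was below iKD2 Dox- (27.7 and 36.8 CPM) and overlapped with iSCR Dox+ (3.52 and 14.2 CPM). The median log2 fold change of the 7 was 0.01 against iKD2 Dox- and -0.26 against iSCR Dox+.

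Markers of other cells that such cultures hold were summed beside these results, since annexins are also expressed in epithelia and connective tissue. Of 10 ductal epithelial markers, 4 (KRT8, KRT18, KRT19 and SOX9) were above all 4 controls in every iKD2 Dox+ library and 0 below (3.47% and 2.83% of all genes tested), and the sum was 2872 to 2905 CPM in iKD2 Dox+, 1365 and 1784 CPM in iKD2 Dox- and 1662 and 2479 CPM in iSCR Dox+. Of 6 markers of surface ectoderm and squamous epithelium, 2 (GATA3 and VTCN1) were above, and the sum was 448 to 489, 72.5 and 218, and 228 and 257 CPM. Of 10 mesenchymal markers 2 were above (LUM and PDGFRB), with sums of 1097 to 1803, 966 and 1012, and 1223 and 1507 CPM, which overlapped. None of these markers was at 0 in all libraries. Of 10 β-cell markers 4 were below all controls (INS, PDX1, PAX6 and CHGA), 6 overlapped and 0 were above. PCSK1 in iKD2 Dox+ (50.4 to 94.8 CPM) was above iSCR Dox+ (49.4 and 40.3 CPM) but below iKD2 Dox- (166 and 115 CPM). The sums of the 10 were 25314 to 29465, 33679 and 37511, and 39841 and 40095 CPM. INS and CHGA made up most of these sums, at 11365 to 13581 and 12446 to 14419 CPM in iKD2 Dox+. Endothelial markers summed to at most 17.1 CPM and myeloid markers, for leukocytes that are rich in ANXA1, to at most 78.6 CPM, with 14.8 to 36.1 CPM in iKD2 Dox+. The part of these cells in the levels of ANXA1, ANXA2, S100A11 and AHNAK was not tested.

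The genes whose pattern over the 7 libraries was most like that of ANXA1 were listed last, by the root mean square difference of mean-centred log2 CPM among 11758 genes with a mean of at least 10 CPM. Among the 5 nearest were IL4R (0.213), a receptor chain for interleukin 4, KLF4 (0.225), a transcription factor, DSC3 (0.242), a cadherin of desmosomes, and GSN (0.273), which severs actin filaments. The median over all these genes was 1.08. KLF4 was at 116, 115 and 185 CPM in libraries a, b and c of iKD2 Dox+, at 48.7 and 37.1 CPM in iKD2 Dox- and at 76.8 and 91.6 CPM in iSCR Dox+. No annexin was among the 5. The nearest gene to ANXA2 was RANBP17 (0.157), to ANXA3 PDK2 (0.206), to ANXA5 ZUP1 (0.0969), to ANXA6 CD99 (0.103), to ANXA7 ENAH (0.111) and to ANXA11 TENT2 (0.104). These are the nearest of many genes over 7 libraries, so that some likeness is to be found for any gene.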

How the data were processed

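RNA-seq was performed on 7 sorted β-like cell samples. Per the labels, the kit was a stranded one for total RNA. The authors trimmed reads with fastp and quantified them with Kallisto, and tximport summed transcript values per gene. The deposited values are estimated counts per gene, unscaled for depth or length. Versions, genome build, annotation and strand setting were not given in the sources used here. A read that fits several genes is divided between them, so that near-identical or overlapping genes are uncertain.

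After rounding to whole numbers, filterByExpr by group kept 22926 of 66025 gene IDs. Library sizes were scaled by TMM, and the robust quasi-likelihood test of edgeR 4.0.16 (R 4.3.3) was run with 3 groups in one fit. P-values were two-sided and adjusted by the Benjamini-Hochberg method over all genes tested. An adjusted p under 0.05 was called. The SE was taken from the F statistic (log2 fold change over its square root). Alternatives were DESeq2 1.42.0, limma voom 3.58.1, other scaling and filters, a fit restricted to the libraries of each comparison, the letters as replicate block, ANXA2 summed with its pseudogenes and each library left out. The length of the principal transcript was added as an alternative after the data had been seen. The test was checked on simulated data. Total counts of 14875429 to 20639156 per library limit low genes, and PCR copies are not independent molecules.

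Coordinates and lengths are those of GENCODE 29 (GRCh38), found by gene ID, and promoter sequences are from RefSeq (GRCh38.p14). Named genes were the 8 members, METTL14, genes of the partner, repair, receptor, plasminogen and glucocorticoid lists that passed or were highest or lowest, and the 5 genes nearest to ANXA1 (1 for other members), of which some are not reported here. Further genes of these lists (S100A10, S100A6, MYOF, PLAUR, PLG, TSC22D3 and the low annexins) and the markers that lay outside all controls were named after their values were seen. Members, lists and rules were chosen with earlier results of these data known. Protein sequences were not used here.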

Additional observations from a re-analysis of the deposited data

How the results depend on the processing

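Of 363 member values under alternatives, 328 counted as unchanged and 26 changed sign. Unchanged values kept their direction and side of the threshold. ANXA1 had no test in the comparisons of iKD2 Dox+, and there a value counted as unchanged if it moved by less than the pooled SD within groups (0.36). Over all genes named with a fold change there were 50 sign changes, 38 of them without 1 library, and 0 of the values past the threshold changed sign or passed it after doing so. The cause was not tested for any of these changes.

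The number of genes called changed with the tool, the filter and the libraries used. For iKD2 Dox+ against iKD2 Dox-, against iSCR Dox+ and for the controls it was 9, 6 and 3 in edgeR, 231, 755 and 428 with DESeq2, 51, 66 and 32 with every gene of at least 1 count, and 2, 3 and 1 with a mean of at least 5 CPM. With only the groups compared it was 0 for the controls. Leaving out 1 library in turn gave 2 to 115, 2 to 544 and 2 to 445, highest without iSCR Dox+ b in each. Members other than ANXA1 past the threshold numbered 1 (ANXA2) against iKD2 Dox- with the filter of 1 count and with DESeq2, and 1 (ANXA2) for the controls with DESeq2. They numbered 0 to 1 in both of these comparisons when 1 library was left out.

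Without 1 library, values against iKD2 Dox- ranged from 1.69 to 2.45 for ANXA1, -0.56 to 1.14 for ANXA3, -0.36 to 0.35 for ANXA4, -0.34 to 0.57 for ANXA7, -0.83 to 0.30 for METTL14, -0.64 to 0.0319 for SRI and -0.12 to 0.33 for TRPM7. Against iSCR Dox+ they ranged from -0.0772 to 0.62 for ANXA2, -0.37 to 1.31 for ANXA3, -0.42 to 0.29 for ANXA4, -0.15 to 0.53 for ANXA6, -0.25 to 0.0594 for ANXA7, -0.45 to 0.23 for S100A6, -1.27 to 0.90 for PLAT and -0.32 to 0.40 for TRPM7. Between the controls they ranged from -1.37 to -0.61 for ANXA1 (-0.99 with DESeq2), -0.91 to 1.26 for ANXA3, -0.23 to 0.12 for ANXA4, -0.25 to 0.46 for ANXA5, -0.70 to 0.21 for ANXA7, -0.88 to 0.0486 for S100A10, -0.55 to 1.19 for MYOF, -1.08 to 0.86 for PLAUR, -0.60 to 0.21 for METTL14, -0.14 to 0.0587 for SYT7 and -0.44 to 0.28 for TRPM7. With voom ANXA4 was at -0.0224 against iSCR Dox+, and PLAUR was at -0.0317 between the controls. With every gene of at least 1 count TRPM7 was at 0.00731 against iSCR Dox+.

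Whether the letters a, b and c pair the libraries is not known. Deviations of libraries with the same letter from their group means correlated at -0.03 to 0.01 over 11758 genes. In a group of 2 libraries the deviations mirror each other by construction, so these values cannot decide the question. A replicate block on the letters gave 18, 15 and 8 genes called. With the replicate block, ANXA4 and ANXA7 were at -0.24 and -0.00249 against iKD2 Dox-, ANXA3 and S100A6 at -0.26 and 0.0417 against iSCR Dox+, and ANXA3 and ANXA4 at -0.95 and 0.38 between the controls, and TRPM7 was at -0.17, 0.19 and 0.37. AHNAK passed against iSCR Dox+ with the block (adjusted p = 0.0196). Depth limits ANXA3 and ANXA4 and the low annexins most, with as few as 96 counts of ANXA3 in a library.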
